A study of Mus musculus with 2 samples.

Results

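The miRNAs miR-103, miR-107, miR-191 and miR-425 are broadly expressed and are often taken as references in miRNA assays, and their levels were measured in J1 mouse embryonic stem cells (mESCs) treated with a MEK inhibitor. All reads were taken that matched, perfectly and over their whole length, 1 of the 5 hairpins Mir103-1, Mir103-2, Mir107, Mir191 and Mir425, out of the 1174 miRNA hairpins with a name in GENCODE M21. The J1 mESCs grew without feeder cells on gelatin in serum replacement medium with 1000 U/mL LIF and received 1 μM PD0325901 (PD), which blocks the kinase MEK upstream of ERK, or an equal volume of DMSO (control). Total RNA was taken after 24 h. RNA of 3 independent experiments was pooled before sequencing, so each treatment was 1 library without replicates. Differences between the libraries therefore have no replicate check and no test, and the 95% intervals given here cover counting error only. The level of a miRNA per cell and the number of cells that contain it cannot be told apart in such pooled RNA.

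A miRNA is cut from a hairpin precursor, first by Drosha and then by Dicer, and the arm that is loaded into an Argonaute protein (the guide) pairs with target mRNAs mainly through its seed, bases 2 to 8. The opposite arm is usually degraded. miR-103 and miR-107 are close relatives whose hairpins lie in introns of the pantothenate kinase genes, which encode the enzymes of the rate-limiting step of coenzyme A synthesis, and they are known to target the mRNA of Dicer itself. miR-191 and miR-425 are made from a common transcript and have unrelated seeds.

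The mature sequences from RefSeq (GRCm38.p6), with the seed in capitals, show which arms can be told apart by sequencing:
miR-103-3p: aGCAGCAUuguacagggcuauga
miR-107-3p: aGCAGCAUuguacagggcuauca
miR-103-1-5p: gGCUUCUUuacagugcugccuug
miR-103-2-5p: aGCUUCUUuacagugcugccuug
miR-107-5p: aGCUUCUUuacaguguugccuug
miR-191-5p: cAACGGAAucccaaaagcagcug
miR-191-3p: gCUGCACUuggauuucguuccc
miR-425-5p: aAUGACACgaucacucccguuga
miR-425-3p: aUCGGGAAugucguguccgcc

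Counted from the 5′ end, miR-103-3p and miR-107-3p differ by a single substitution, G22C, so that a tag that begins at base 1 and ends before base 22 fits both. Mir103-1 and Mir103-2 give an identical miR-103-3p. Their 5p arms differ by A1G from miR-103-2-5p to miR-103-1-5p, and miR-107-5p differs from miR-103-2-5p by C16U. No other RefSeq miRNA had the seed GCAGCAU of miR-103-3p and miR-107-3p or the seed AACGGAA of miR-191-5p. The seed AUGACAC of miR-425-5p was also that of miR-489-3p, which stood at 0.106 RPM (reads per 1000000 clean reads) in the control and had no read in PD.

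In GRCm38, Mir103-1 lies at chr11:35782396-35782481 on the plus strand, in an intron of the only annotated transcript of Pank3. Mir103-2 lies at chr2:131288052-131288137 on the plus strand, in an intron of 7 of the 8 transcripts of Pank2. Mir107 lies at chr19:34820687-34820773 on the minus strand, in an intron of 3 of the 4 transcripts of Pank1. All 3 hairpins have the strand of their host gene. Mir191 at chr9:108568319-108568392 and Mir425 at chr9:108568777-108568861, both on the plus strand, are 384 bases apart inside the lincRNA 4833445I07Rik, where each is exonic in 1 of 2 transcripts. The gene Dalrd3 starts 1024 bases after Mir425. Mir191 also overlaps Gm24083, a miRNA annotated on the opposite strand, and no read matched the strand opposite Mir191. For the other 4 hairpins the only such read was 1 in PD opposite Mir425. Reads outside the mature arms numbered 0 or 1 per hairpin and library.

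Clean reads numbered 18870345 in the control and 20944808 in PD, and 3 reads were worth 0.159 and 0.143 RPM. Reads of 20 to 24 nt, the size of miRNAs, were 63.03% of the control and 52.04% of PD, and reads that matched any miRNA hairpin were 11.56% and 10.08%. Most reads of 20 to 24 nt thus matched none of the named hairpins. The stem cell label fits its markers: the summed level of the 8 miR-290-295 and miR-302 markers came to 29504 and 24848 RPM in control and PD, although miR-302a-3p and miR-302d-3p stayed between 1.378 and 5.682 RPM. Markers of other cells were not absent. The sums were 198.9 and 168.9 RPM for 4 markers of fibroblasts and smooth muscle (miR-214-3p at 0 and 1 read), 16.11 and 14.94 RPM for 3 of blood (miR-223-3p without a read), 157.4 and 165.9 RPM for 2 of striated muscle (miR-133a-3p at 5 reads in each library), 2.915 and 2.005 RPM for the liver marker miR-122-5p, and 272.5 and 485.7 RPM for 2 of neurons. The neuron markers went opposite ways, with miR-124a-3p at 255.2 and 472 RPM and miR-9-5p at 17.38 and 13.7 RPM. The part of other cells in the values that follow was not tested.

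The 5 hairpins together took 173400 reads in the control and 160797 in PD, or 9189.02 and 7677.18 RPM. That was 7.951% and 7.616% of all hairpin reads. They came from 116 distinct tags out of 1695245. The PD to control fold change of this sum was 0.835 (95% interval 0.830 to 0.841) per clean read. It was 0.958 per hairpin read and 1.012 per read of 20 to 24 nt, so its side of 1 depends on the denominator. Of 9 mature arms, 8 had reads and 7 reached 1 RPM in either library (detected). None of the 7 passed the 1.5-fold used in the study, where 6.01% of 499 detected miRNAs were at least 1.5-fold higher and 13.8% at least 1.5-fold lower in PD. At those shares, a count of 0 among 7 arms is not far from the background. Per clean read, 6 of the 7 arms were below the control, against 67.5% of all detected miRNAs, and the median fold change was 0.881 over the arms and 0.888 over all. miR-103-3p and miR-107-3p share tags, so the 7 arms are not independent values.

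miR-103-3p, the guide of Mir103-1 and Mir103-2, was the most abundant of these miRNAs. It had 115925 reads in the control, which is 6143 RPM (6108 to 6179), and 106209 in PD, which is 5071 RPM (5041 to 5101). It ranked 4 among all miRNAs in both libraries and took 5.32% and 5.03% of the hairpin reads. These values count in full the tags it shares with miR-107-3p. On its own tags it stood at 4951 RPM in the control, below miR-25-3p at 5232 RPM. In PD its own tags stood at 4191 RPM, above miR-25-3p at 3736 RPM. The fold change of all its tags per clean read was 0.825 (0.819 to 0.832), below the median of detected miRNAs, and 190 of the 499 had a lower one. Divided by that median, it was 0.929.

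miR-107-3p, the guide of Mir107, had 32906 reads or 1744 RPM (1725 to 1763) in the control and 26998 reads or 1289 RPM (1274 to 1304) in PD. Its fold change of 0.739 (0.727 to 0.751) was the lowest of the 7 arms in the main count. miR-425-3p was lower for tags from the first base of each miRNA (0.730 against 0.739) and for the most frequent tag alone (0.726 against 0.771). Under the other alternatives miR-107-3p stayed the lowest. Its main value lay below the lower quartile of all detected miRNAs, 0.754, while the upper quartile was 1.043. On its own tags the fold change was 0.742 (0.721 to 0.764), an interval that includes 0.754. The rank of miR-107-3p was 17 in the control and 19 in PD, with the tags it shares with miR-103-3p counted in full. miR-107-3p stayed below the control under each of the 11 alternatives tried, between 0.739 and 0.895, but it did not reach 1.5-fold lower under any of them.

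miR-191-5p, the guide of Mir191, had 46640 reads or 2472 RPM (2449 to 2494) in the control and 45610 reads or 2178 RPM (2158 to 2198) in PD. The fold change was 0.881 (0.870 to 0.893), which is 0.992 of the median of detected miRNAs, and the ranks were 12 and 11. Its fold change was 1.010 per hairpin read and 1.067 per read of 20 to 24 nt, so its side of 1 depends on the denominator.

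**Figure D1:**
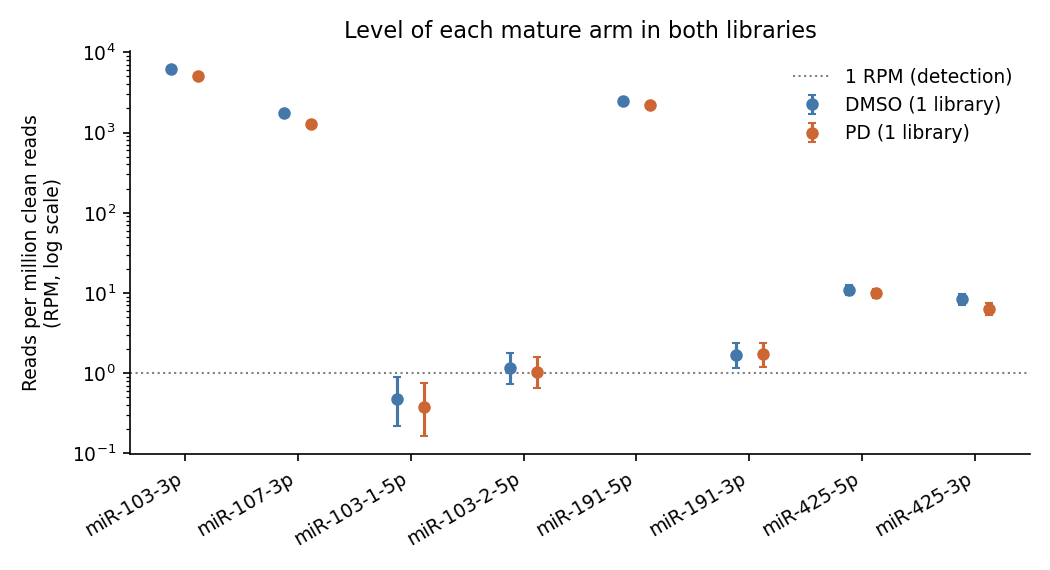
Level of the 8 mature arms with reads, in RPM on a log axis, in the control (DMSO, blue) and PD (orange) library; bars are exact 95% counting intervals and each point is 1 library. miR-103-3p, miR-107-3p and miR-191-5p lie above 1000 RPM, with tags shared by miR-103-3p and miR-107-3p counted in full for each. miR-425-5p and miR-425-3p lie near 10 RPM, and the passenger arms of the other hairpins near or under the dotted line at 1 RPM.

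The neighbour of miR-191 was far less abundant. miR-425-5p had 206 and 207 reads, or 10.92 RPM (9.477 to 12.51) in the control and 9.883 RPM (8.583 to 11.33) in PD, with a fold change of 0.905 (0.743 to 1.103). Its interval includes 1, and it ranked 242 and 247. miR-425-3p had 158 and 133 reads, or 8.373 and 6.35 RPM, with a fold change of 0.758 (0.598 to 0.961). Though Mir191 and Mir425 lie on a common transcript, 226 reads of miR-191-5p were found in the control for each read of miR-425-5p and 220 in PD. This ratio of PD to control ratios was 0.973 (0.802 to 1.181), so a difference between the libraries was not detectable at this depth.

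The passenger arms were rare for every hairpin but Mir425. miR-191-3p had 32 and 36 reads (1.696 and 1.719 RPM), a fold change of 1.014 (0.612 to 1.686). miR-103-2-5p had 22 reads in each library (1.166 and 1.05 RPM), a fold change of 0.901 (0.476 to 1.706). miR-103-1-5p had 9 and 8 reads and did not reach 1 RPM. miR-107-5p had no read, which allows up to 0.159 RPM in the control and 0.143 RPM in PD. The ratio of guide to passenger reads was 1458 and 1267 for Mir191 and 3740 and 3540 for miR-103. For Mir425 the 5p to 3p ratio was only 1.3 in the control and 1.56 in PD, a change of 1.194 (0.884 to 1.612). The reads thus come almost wholly from 1 arm of Mir191 and of the miR-103 hairpins and from both arms of Mir425.

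The 5p arms are the only ones that can tell the 2 miR-103 genes apart over their full length. miR-103-2-5p was read 2.44 times for each read of miR-103-1-5p in the control and 2.75 times in PD, a change of 1.125 (0.367 to 3.451). With 9 and 8 reads of miR-103-1-5p, this gives no more than that both genes were read. At the 3p arm, 884 and 1039 reads matched the Mir103-2 hairpin only and 3 and 4 reads the Mir103-1 hairpin only. Of the former, 864 and 1018 were a tag of 25 nt whose last base, in capitals, fits Mir103-2 but not Mir103-1:
25-nt tag of miR-103-3p: agcagcattgtacagggctatgaaA
The same letters would arise if an untemplated A were added to the 24-nt tag of either gene, so this tag cannot be told apart from a tailed one.

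The overlap of miR-103 and miR-107 was resolved on the tags themselves. The tags with most reads are given with the part after base 21 in capitals, since only that part separates both miRNAs:
miR-103-3p, 23 nt: agcagcattgtacagggctatGA
miR-103-3p, 22 nt: agcagcattgtacagggctatG
miR-107-3p, 23 nt: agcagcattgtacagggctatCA
miR-107-3p, 22 nt: agcagcattgtacagggctatC
both, 21 nt: agcagcattgtacagggctat

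With each tag taken once, the 3p arms of miR-103 and miR-107 had 126331 reads in the control and 114780 in PD, a fold change of 0.819 (0.812 to 0.825). Tags of miR-103-3p only made up 74% of these reads in the control (95% Wilson interval 73.7 to 74.2) and 76.5% in PD (76.2 to 76.7). Tags of miR-107-3p only made up 8.24% (8.09 to 8.39) and 7.47% (7.32 to 7.62). The remaining 17.8% and 16.1% could belong to either. The shared 21-nt tag had 20101 and 17195 reads and was the most frequent tag counted for miR-107-3p, and only 31.6% and 31.7% of the miR-107-3p reads were its own. The level of 1744 RPM given for miR-107-3p is therefore an upper value, and its ranks would be lower on its own tags. Its own tags came to 551.4 RPM in the control and 409.2 RPM in PD.

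On own tags, the fold change was 0.847 (0.839 to 0.854) for miR-103-3p and 0.742 (0.721 to 0.764) for miR-107-3p. The shared tags had 0.738 (0.724 to 0.752). The ratio of miR-103-3p to miR-107-3p, which does not depend on the denominator, was 8.98 in the control and 10.2 in PD, a change of 1.141 (1.107 to 1.176). It rested on the full-length tags. At 23 nt the ratio was 9.68 and 11.4, a change of 1.178 (1.137 to 1.221). At 22 nt it was 6.4 and 6.21, a change of 0.971 (0.918 to 1.027), and the 22-nt tags of miR-103-3p and miR-107-3p had fold changes of 0.708 and 0.728. Against miR-191-5p, the own tags of miR-103-3p stood at 2 in the control and 1.92 in PD, a change of 0.961 (0.946 to 0.976), and those of miR-107-3p at 0.223 and 0.188, a change of 0.842 (0.816 to 0.869). Both changes set unlike tags side by side, since own tags leave out the shared short tags and miR-191-5p kept its short tags. Its fold change at 22 nt or more was 0.920. From the first base, miR-103-3p and miR-191-5p had 0.708 and 0.675 at 22 nt, and 0.882 and 0.970 at 23 nt. Over these tag sets the 3 abundant guides did not keep constant ratios to each other, by amounts beyond counting error, but size and side depended on the tags compared. Whether replicates would vary as much was not measured.

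**Figure D2:**
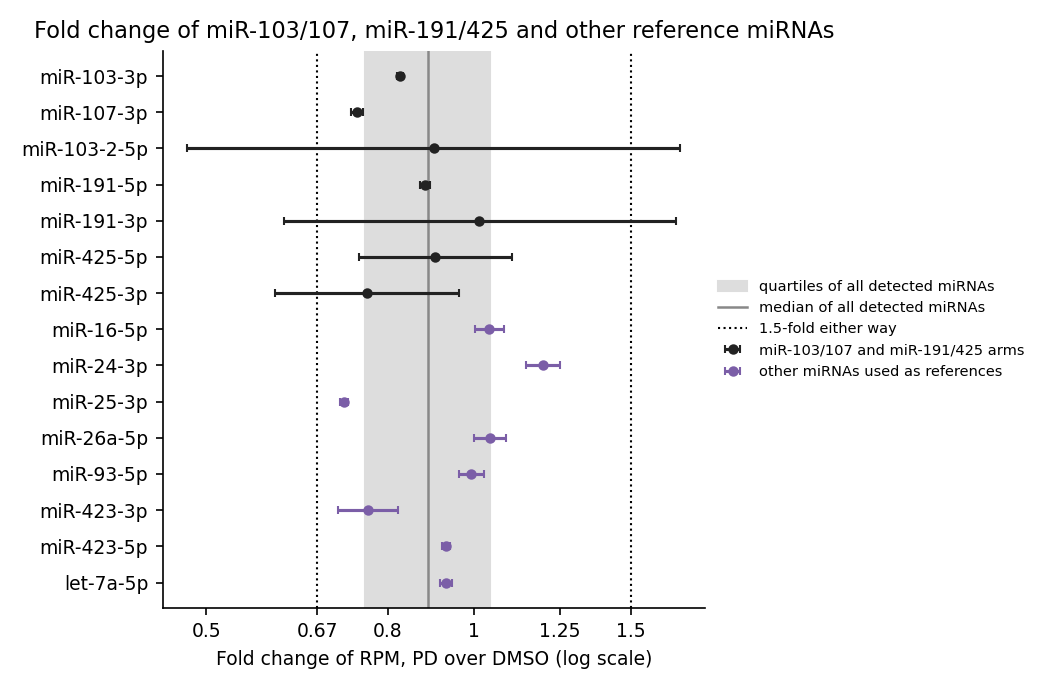
PD to control fold change of RPM per clean read, on a log axis, of the 7 detected arms (black) and of 8 other miRNAs used as references (purple), with 95% counting intervals from 1 library each; the band spans the quartiles of all 499 detected miRNAs and the line their median, 0.888. miR-191-5p at 0.881 and miR-425-5p at 0.905 sit near the median, the latter with an interval of 0.743 to 1.103. miR-107-3p at 0.739 and the other reference miR-25-3p at 0.714 lie left of the band, and miR-24-3p at 1.196 lies right of it. No point passes the dotted lines of 1.5-fold, though per read of 20 to 24 nt miR-191-5p and miR-425-5p lie above 1.

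Since these miRNAs are used as references, they were set beside 8 others in the same use. Per clean read, the fold changes were 1.196 (1.144 to 1.251) for miR-24-3p, 1.043 for miR-26a-5p, 1.041 for miR-16-5p, 0.993 for miR-93-5p, 0.930 for both miR-423-5p and let-7a-5p, 0.760 for miR-423-3p and 0.714 (0.707 to 0.721) for miR-25-3p. The 4 guides miR-103-3p, miR-107-3p, miR-191-5p and miR-425-5p, from 0.739 to 0.905, lay within this range. None of the 8 passed 1.5-fold.

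The choice of reference moved the balance of higher and lower miRNAs. With all clean reads as the base, 30 detected miRNAs were at least 1.5-fold higher and 69 at least 1.5-fold lower. With miR-191-5p set to no change the counts were 45 higher and 32 lower, and with miR-425-5p 37 and 36. With miR-103-3p they were 59 and 23, and with miR-107-3p 95 and 14. The geometric mean of the 4 guides, which had a fold change of 0.835, gave 58 and 23. By comparison, miR-24-3p gave 15 higher and 162 lower, miR-25-3p 110 and 12, and miR-16-5p 28 and 88. The median fold change of all detected miRNAs was 1.201 relative to miR-107-3p, 1.076 relative to miR-103-3p, 1.008 relative to miR-191-5p and 0.981 relative to miR-425-5p. Which of the 4 guides stood nearest to the median of all miRNAs depended on the tags counted. It was miR-191-5p for all tags and miR-425-5p (0.914) for tags of 21 nt or more, where the median was also 0.914. For the most frequent tag of each miRNA alone it was miR-103-3p (0.882), where the median was 0.919 and miR-191-5p stood at 0.970. The values set by miR-425-5p rest on 206 and 207 reads. Its fold change interval, 0.743 to 1.103, begins near the value of miR-107-3p (0.739) and holds that of miR-26a-5p (1.043), which gave 28 higher and 88 lower. The counts relative to miR-425-5p and its place near the median are thus not resolved at this depth.

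The miRNAs nearest to each abundant guide by level in both libraries were miR-25-3p and miR-423-5p for miR-103-3p (distances of 0.498 and 0.626 in log2 RPM over the 2 libraries). For miR-107-3p they were miR-291a-5p and miR-92-3p (0.280 and 0.339), matched to its level with the shared tags and not to the 551.4 and 409.2 RPM of its own tags. For miR-191-5p they were miR-181d-5p and miR-295-3p (0.142 and 0.156). miR-181d-5p was read at 2381 and 1988 RPM, and miR-295-3p, of the embryonic stem cell cluster, at 2237 and 2089 RPM.

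The tags of each guide differed mainly at the 3′ end. For miR-103-3p, 99% of the reads in each library began at the RefSeq first base, and for miR-107-3p 99.7%. For miR-191-5p 95.6% and 95.9% began there, and 4.32% (4.14 to 4.5) and 4.01% (3.84 to 4.2) began 1 base later. This start shifts the seed, shown in capitals:
miR-191-5p, start 1 base later: aACGGAATcccaaaagcagctg
That 22-nt tag had 817 reads in the control and 821 in PD. A start 1 base earlier gives miR-103-3p bases 2 to 8 of AGCAGCA, the seed of miR-16-5p, and was rare, with 29 and 13 reads. The comparison with the miR-15/16 seed was added after the data were seen.

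At the 3′ end, 60.8% (60.5 to 61) of the miR-103-3p reads in the control and 64.9% (64.6 to 65.2) in PD ended at the RefSeq last base. Ends 1 base earlier made up 17.7% and 15.1%, and ends 2 bases earlier 17.4% and 16.2%. miR-191-5p ended more variably. The RefSeq last base ended 41.9% (41.5 to 42.4) of its reads in the control and 46% (45.6 to 46.5) in PD, 1 base earlier 24.5% and 18.6%, and 1 base later 25.4% (25 to 25.8) and 30.7% (30.2 to 31.1). In both guides the PD reads were shifted to later 3′ ends, by more than the counting intervals.

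**Figure D3:**
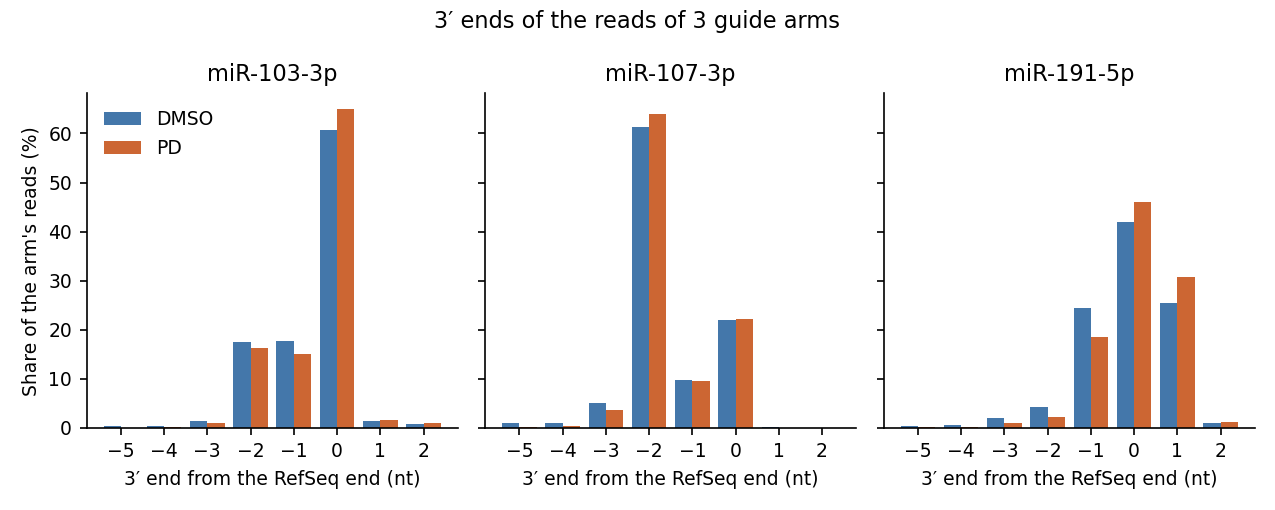
Share of the reads of miR-103-3p, miR-107-3p and miR-191-5p, in percent, by the distance of the 3′ end from the last RefSeq base, in the control (DMSO, blue) and PD (orange), 1 library each. In miR-103-3p and miR-191-5p the bars at the RefSeq end are higher in PD and those 1 base earlier are lower, and miR-107-3p is dominated by the 21-nt tag it shares with miR-103-3p, at 2 bases before its end.

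The fold change was lowest for the shortest tags of each abundant guide, but did not increase at every step of length. For miR-103-3p tags from the RefSeq first base, the reads at 18 nt were 331 in the control and 71 in PD, a fold change of 0.193 (0.147 to 0.250). At 20 nt they were 1673 and 1005, or 0.541. At 21 nt, where the tag is shared with miR-107-3p, the fold change was 0.771 (0.755 to 0.787), above that at 22 nt, 0.708 (0.693 to 0.723). It was 0.882 (0.873 to 0.892) at 23 nt and 1.062 (0.969 to 1.164) at 25 nt. The tags of miR-107-3p only had 0.728 (0.691 to 0.768) at 22 nt and 0.749 (0.724 to 0.775) at 23 nt, both below the shared 21-nt tag. For miR-191-5p, 128 and 36 reads at 18 nt gave 0.253 (0.170 to 0.369). At 21 nt the fold change was 0.473 (0.438 to 0.511), at 22 nt 0.675 (0.656 to 0.694), at 23 nt 0.970 (0.951 to 0.989) and at 24 nt 1.064 (1.037 to 1.091). The miR-191-5p tag of 24 nt, with 11238 reads in the control and 13267 in PD, was thus above the control while that of 22 nt, with 10998 and 8236, was below it, and a level taken from 1 tag would depend on which was chosen.

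**Figure D4:**
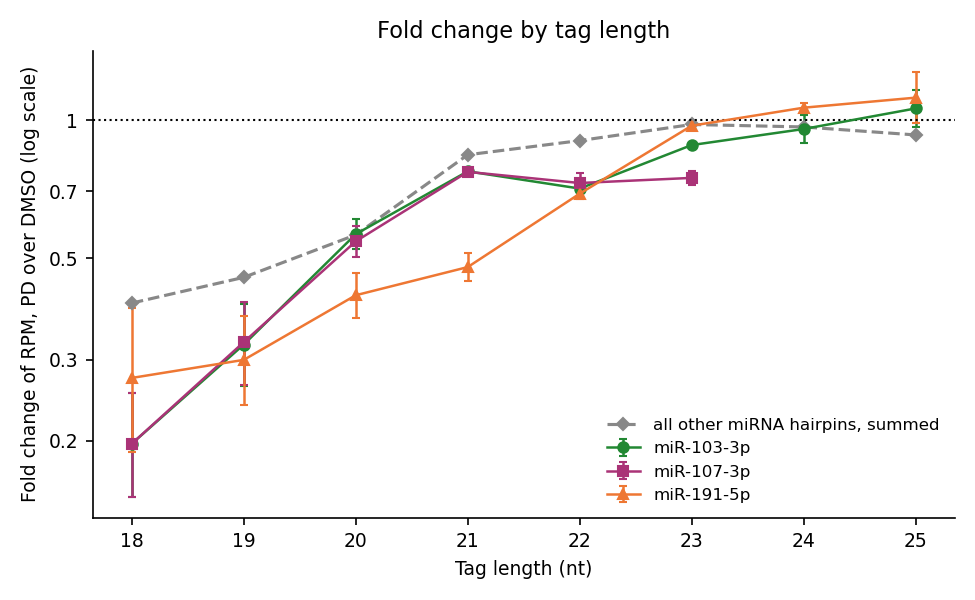
PD to control fold change of RPM per clean read, on a log axis, by tag length in nt, for miR-103-3p, miR-107-3p and miR-191-5p (points with 95% counting intervals, lengths of at least 50 reads over both libraries) and for the reads of all other miRNA hairpins together (grey dashes). All 4 lines are lowest at 18 nt and under 1 at 23 nt. miR-107-3p and miR-191-5p are below the grey line from 18 to 23 nt. miR-103-3p is below it at these lengths too, except at 20 nt (0.564 against 0.562).

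A lower fold change of short tags was also present in the reads of the other miRNA hairpins, so it is not particular to these miRNAs. Their summed fold change was 0.399 at 18 nt, 0.562 at 20 nt, 0.902 at 22 nt and 0.978 at 23 nt. Tags of 20 nt or less had a lower fold change than tags of 22 nt or more in 84.2% of 171 miRNAs with at least 50 reads in each class, with a median ratio of 0.607 (quartiles 0.424 and 0.825). The ratio was 0.571 (0.534 to 0.609) for miR-103-3p, 0.623 (0.579 to 0.672) for miR-107-3p, which shares most of its short tags with miR-103-3p, and 0.407 (0.370 to 0.449) for miR-191-5p. For miR-425-3p, 34 and 18 short reads gave 0.540 (0.271 to 1.076). All 4 are on the side of most miRNAs, though the interval of miR-425-3p includes 1. The value of miR-191-5p is below the lower quartile, which its interval includes. The length classes were chosen after the data were seen. The share of clean reads of 20 to 24 nt also differed between the libraries, and its part in this difference was not tested.

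Tags of equal length but different ends were compared at 4 lengths of miR-191-5p and 3 of miR-103-3p. At 22 nt, miR-191-5p shortened by 1 base at the 3′ end had a fold change of 0.675, and shortened by 1 base at the 5′ end it had 0.905, a ratio of 0.745 (0.674 to 0.824). For miR-103-3p the values were 0.708 and 0.883, the latter from 101 and 99 reads, a ratio of 0.801 (0.607 to 1.058). The 3′-shortened tag had the lower fold change in 62.3% of 61 miRNAs, with a median ratio of 0.910, so a lower value in both of these arms is near what other miRNAs gave. At 21 nt the pair of miR-191-5p tags that began at the first and second base had 0.473 and 0.484, a ratio of 0.977 (0.820 to 1.165). The same starts gave 1.066 (0.712 to 1.597) at 20 nt and 0.940 (0.842 to 1.049) at 23 nt. For miR-103-3p, tags that began at base 1 and base 3 gave 0.744 (0.587 to 0.944) at 20 nt and 0.916 (0.822 to 1.022) at 21 nt, and at both lengths the tag from base 1 is shared with miR-107-3p. The interval lay below 1 for 2 of the 7 pairs and included 1 for the other 5.

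Bases that do not match the hairpin were also read at the 3′ end of these miRNAs. Tails of 1 to 3 such bases were found on 5.07% (4.96 to 5.19) of the miR-103-3p and miR-107-3p reads in the control and on 5.51% (5.39 to 5.64) in PD. Tails of U alone were counted on 4.03% and 4.49%. miR-191-5p carried tails on 11.3% (11.1 to 11.6) of its reads in the control and 13.5% (13.2 to 13.8) in PD, and tails of A alone on 9.5% (9.25 to 9.75) and 11.3% (11 to 11.6). Only bases that the hairpin does not encode can be counted as a tail. The hairpins of Mir103-1, Mir103-2 and Mir107 go on with A after the mature 3′ end and that of Mir191 with U. An added A on full-length miR-103-3p or miR-107-3p, or an added U on full-length miR-191-5p, was therefore read as part of the hairpin, and the added bases of these miRNAs cannot be compared with each other. For miR-425-5p, 7 of 213 and 10 of 217 reads had a tail, and for miR-425-3p 15 of 173 and 17 of 150, and their intervals in both libraries overlapped.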

How the data were processed

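The authors gel-purified small RNA from pooled total RNA, sequenced it, removed low-quality, adapter, contaminating and short reads, and deposited the length in nt and the read count of every distinct tag. The deposited counts are raw, without annotation or normalization, and no aligner is given in the sources used here. The submitters' processing notes name mm9, and coordinates here are those of GENCODE M21 and RefSeq on GRCm38. The members, lists and tests were chosen with earlier results of these data known.

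Tags were matched with Python 3.11.15 to 1174 GENCODE hairpins without mismatch over their whole length. They were assigned to an arm (split by the ViennaRNA 2.7.2 fold) when at least 16 nt overlapped its most frequent tag, and arms with the same most frequent tag were merged. A tag that fits several miRNAs counted in full for each. RPM is reads per 1000000 clean reads (18870345 in the control and 20944808 in PD), and a miRNA at 1 RPM or more in either library was detected. Intervals are Clopper-Pearson for fold changes and RPM, Wilson for shares and Woolf for ratios of ratios. Procedures were tested on simulated data with counting error only. Each simulated mature tag fitted 1 hairpin only, so the sharing of mature tags was not tested. TMM of edgeR 4.0.16 and size factors of DESeq2 1.42.0 served as alternatives, next to other tag rules, denominators, filters and a 2-fold limit. Named were all arms of the 5 hairpins with reads, 8 other reference miRNAs, the 2 nearest miRNAs by log2 RPM of each arm of 100 RPM or more, and miRNAs with the seed of a guide.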

Additional observations from a re-analysis of the deposited data

How the results depend on the processing

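No arm of the 5 hairpins passed 1.5-fold under any of the alternatives. The fold change of their summed reads, 0.835 per clean read, was 0.877 for the most frequent tag of each arm alone. For miR-107-3p that is the 21-nt tag shared with miR-103-3p, not the 23-nt RefSeq sequence. The sum had 0.845 for tags of 21 nt or more, 0.845 with untemplated tails and 0.850 for tags of 1 miRNA only. It had 0.958 per hairpin read, 1.012 per read of 20 to 24 nt, 0.939 with edgeR TMM and 0.941 with DESeq2 size factors. The median of all detected miRNAs was 0.888 per clean read, 1.018 per hairpin read, 1.076 per read of 20 to 24 nt, 0.998 with TMM and 1.000 with DESeq2, so these denominators move all miRNAs together. miR-103-3p was between 0.825 and 1.000, miR-191-5p between 0.881 and 1.067, miR-425-5p between 0.778 and 1.096 and miR-425-3p between 0.726 and 0.919. Of 499 detected miRNAs, 99 passed 1.5-fold, and 69.7% of these were lower in PD. The share lower was 38.5% per hairpin read, 28% per read of 20 to 24 nt, 44.2% with TMM or DESeq2 and 57.3% for tags of 21 nt or more. The count of miRNAs past the limit was 561 of 1139 (49.3%) without a filter on low levels, 32 of 258 (12.4%) at 10 RPM or more and 26 of 499 (5.21%) at 2-fold. No paired analysis was possible because each treatment is 1 library. With 22 or fewer reads per library, miR-103-1-5p and miR-103-2-5p carry no more than presence, and 32 and 36 reads limit miR-191-3p likewise.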
